A study of Mus musculus with 24 samples.

Results

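Normal mouse retina was followed from 1 to 4 months of age on an array devoted to genes that build, carry or bind glycans and to signalling genes. The 12 arrays of retinas labelled normal (P347S-) were taken from the 24 arrays of the study, 3 at each of 1, 2, 3 and 4 months, and every probe set was ranked by its mean log2 signal over them. The remaining 12 arrays came from RP mutant mice (P347S+), transgenic mice with the P347S rhodopsin mutation whose rod photoreceptors degenerate, with 3 arrays at each of the same ages; they enter the last comparison only. The strain and the promoter of the transgene are not given in the labels, the sex is labelled unknown, and nothing states that the arrays of a group are separate mice. Each p below therefore measures only the spread between arrays, which may be technical.

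Glycans are assembled stepwise. Sugars are activated in the cytosol as nucleotide sugars, carried into the endoplasmic reticulum and Golgi, joined to proteins and lipids by glycosyltransferases and later taken apart by lysosomal hydrolases. Neural retina is known for gangliosides, which are sialic acid-bearing lipids of neuronal membranes, and for the glycan on dystroglycan that anchors the photoreceptor synapse. Galectins, siglecs, selectins and C-type lectins are proteins that bind such chains, and many siglecs, selectins and C-type lectins are known from leukocytes and endothelium.

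The array held 1246 probe sets, of which 963 matched 909 genes and 283 have no gene name here. Values of the 12 normal arrays lay between 1.95 and 14.13 on the log2 scale, and array medians between 5.18 and 5.34. Over all probe sets the arrays correlated with r of 0.986 to 0.997, which is high because probe sets differ widely in signal. The median was 0.996 for the 12 pairs of equal age and 0.995 for the 54 pairs of unequal age. For deviations from each probe set's mean the median r was 0.10 for equal age and -0.10 for unequal age. The number of arrays limits the precision. A pair of normal arrays stood apart. Grifin, a galectin-related gene of the lens, read 11.33 in replicate 2 of 2 months and 10.16 in replicate 1 of 4 months. Replicate 1 of 1 month read 8.77 and the rest 5.80 to 6.52. Fits without high Grifin left out arrays above 10, so this 1-month array stayed in them. In whole retina fewer cells of a type and less RNA per cell cannot be told apart.

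The tissue label could be checked on few genes. Of 19 genes listed as rod markers only Gnb1 (suffix s), a beta subunit of the rod G protein transducin, was measured. It read 13.04 ± 0.20 (SD, n = 12 arrays), which by itself does not measure rod content. Markers of cones (11 genes), of bipolar, amacrine and horizontal cells (20) and of Müller glia and astrocytes (15) had 0 measured members. L1cam, a neural adhesion molecule of ganglion cell axons, was the only measured gene of 12 ganglion cell markers and read 8.99 ± 0.21. Of the 6 measured microglia and macrophage markers Cx3cr1 (7.01 ± 0.19) and Csf1r (6.78 ± 0.21) read highest, and Adgre1 (3.54 ± 0.11) and Mrc1 (3.27 ± 0.17) lowest. The 5 connective tissue markers ran from Pdgfra (7.12 ± 0.46) to Lum (2.89 ± 0.37), the platelet genes Pf4 and Ppbp read 4.51 ± 0.16 and 3.02 ± 0.10, and the pigment epithelium marker Bmp4 read 5.42 ± 0.84.

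Ranks are ranks of signal, not of transcript amount, because probe sets bind with different strength, and no background level is known for this array. For 48 genes with more than 1 probe set the highest and lowest differed by a median of 0.43 log2 units; the gap exceeded 1 for 16 genes, reached 3.13 for Il6ra, and, with the middle quartiles taken as 1 class, placed 12 genes in different classes (top, middle or bottom) of the ranking. Rpn1 and Dad1, oligosaccharyltransferase subunits that every cell uses, read only 4.43 ± 0.09 and 4.72 ± 0.09. A low signal is therefore no evidence that a gene is silent. The quartiles of the ranking were bounded at 3.85, 5.28 (the median) and 7.60. With 1 probe set per gene, the highest, 290 of the 909 named genes (31.9%) lay in the top quartile and 184 (20.2%) in the bottom quartile, with a median of 5.82. Ccl27a, Gfra2 and Dhh, named below in the top quartile, each have another probe set outside it (lowest means 7.26, 7.59 and 7.33). Suffix s or x marks probe sets that may also bind other transcripts, and suffix a those that bind several transcripts of a gene.

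The highest signals came from genes of varied function. Aldoa, a glycolytic aldolase, read 14.08 ± 0.05 and was followed by the ribosomal protein gene Rps27 (13.18 ± 0.09), Gnb1, the 14-3-3 protein gene Ywhab (12.81 ± 0.06) and the nucleosome-binding Hmgn2 (12.24 ± 0.20); all 5 probe sets have suffix s. Bsg (basigin, suffix s), a glycoprotein that photoreceptors need to survive, read 12.22 ± 0.18. Gnb1 read 12.95, 12.89 and 13.16 at 1 month, 13.02, 13.12 and 13.14 at 2 months, 13.26, 12.74 and 12.64 at 3 months and 13.18, 13.23 and 13.18 at 4 months. The lowest of these arrays were replicates 2 and 3 of 3 months, and all 3 of 4 months lay above those of 1 month, with a difference of 0.19 and a 95% interval from -0.10 to 0.48.

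Lysosomal and glycan-turnover genes stood among the 20 highest. Psap, the precursor of the saposins that help degrade glycosphingolipids, read 11.70 ± 0.09, the lysosomal membrane glycoprotein Lamp1 11.47 ± 0.09, the V-ATPase subunit Atp6v0d1 11.81 ± 0.14, and Oga (suffix s), which removes O-GlcNAc from proteins, 11.37 ± 0.06. The other 10 were Pfdn5 (11.90), BC031181 (11.80), Ddb1 (11.73), Rab14 (11.69), Pcbp1 (11.48), Ctbp1 (11.36), Fryl (11.30), Psmc5 (11.29), Psmb3 (11.22) and Gps1 (11.17). These include subunits of prefoldin, the proteasome and the COP9 signalosome. When each age was ranked alone, 19 of the 20 recurred at 1, 2 and 3 months and 20 at 4 months.

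The ranking went with the CG content of promoters, which the ranking did not use. The 250 bases before the RefSeq start (GRCm38.p6) were found for 708 of the 909 genes, and for 119 with several starts the first listed was taken. The dinucleotide CG occurred a median of 17 times in the 242 promoters of the top quartile, 10 times in the 323 of the middle quartiles and 3 times in the 143 of the bottom quartile, against 6 in all 27025 promoters of the table. At least 10 CG were held by 83.9%, 52.6% and 18.2% of promoters in the top, middle and bottom quartiles and by 38.2% of the table. The letters TATAAA on either strand were found in 4.13%, 12.4% and 26.6% of the 3 sets and in 13.0% of the table. Spearman's rho between signal and CG count was 0.48 over the 708 genes, which share array and base composition and are not independent. Below are promoters of a pair of high-signal and a pair of low-signal genes, chosen after their values were seen to show the contrast, 5′ to 3′ with CG and TATAAA in capitals. Gnb1 (chr4:155491111-155491360, plus strand) holds 26 CG and Psap (chr10:60277378-60277627, plus strand) 16. Il17a (chr1:20730655-20730904, plus strand), a T cell cytokine that read 2.33 ± 0.07, holds 4 CG and TATAAA next to the last of them. Olr1 (chr6:129507166-129507415, minus strand), a C-type lectin that binds oxidised lipoprotein and read 2.33, holds 6. Of these 4 promoters only that of Il17a has TATAAA in this window.
Gnb1: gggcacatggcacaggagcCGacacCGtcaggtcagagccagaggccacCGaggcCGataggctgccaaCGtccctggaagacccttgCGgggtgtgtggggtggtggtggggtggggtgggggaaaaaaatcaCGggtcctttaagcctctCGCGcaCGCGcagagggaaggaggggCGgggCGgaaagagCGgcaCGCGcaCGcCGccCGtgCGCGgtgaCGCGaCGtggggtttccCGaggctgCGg
Psap: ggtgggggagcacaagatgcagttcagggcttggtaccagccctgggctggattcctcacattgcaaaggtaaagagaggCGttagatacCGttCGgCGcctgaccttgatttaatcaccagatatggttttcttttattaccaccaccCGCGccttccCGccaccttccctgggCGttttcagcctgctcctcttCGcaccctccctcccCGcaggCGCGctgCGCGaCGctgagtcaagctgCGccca
Il17a: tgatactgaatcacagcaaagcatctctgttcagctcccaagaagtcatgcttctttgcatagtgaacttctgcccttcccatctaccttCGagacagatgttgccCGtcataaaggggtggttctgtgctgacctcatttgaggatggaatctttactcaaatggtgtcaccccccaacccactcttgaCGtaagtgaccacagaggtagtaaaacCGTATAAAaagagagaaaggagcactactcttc
Olr1: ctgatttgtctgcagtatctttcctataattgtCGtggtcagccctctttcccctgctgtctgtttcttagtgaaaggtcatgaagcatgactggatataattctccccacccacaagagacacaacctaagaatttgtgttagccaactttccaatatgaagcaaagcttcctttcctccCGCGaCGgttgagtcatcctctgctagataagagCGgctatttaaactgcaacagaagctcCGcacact

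**Figure D1:**
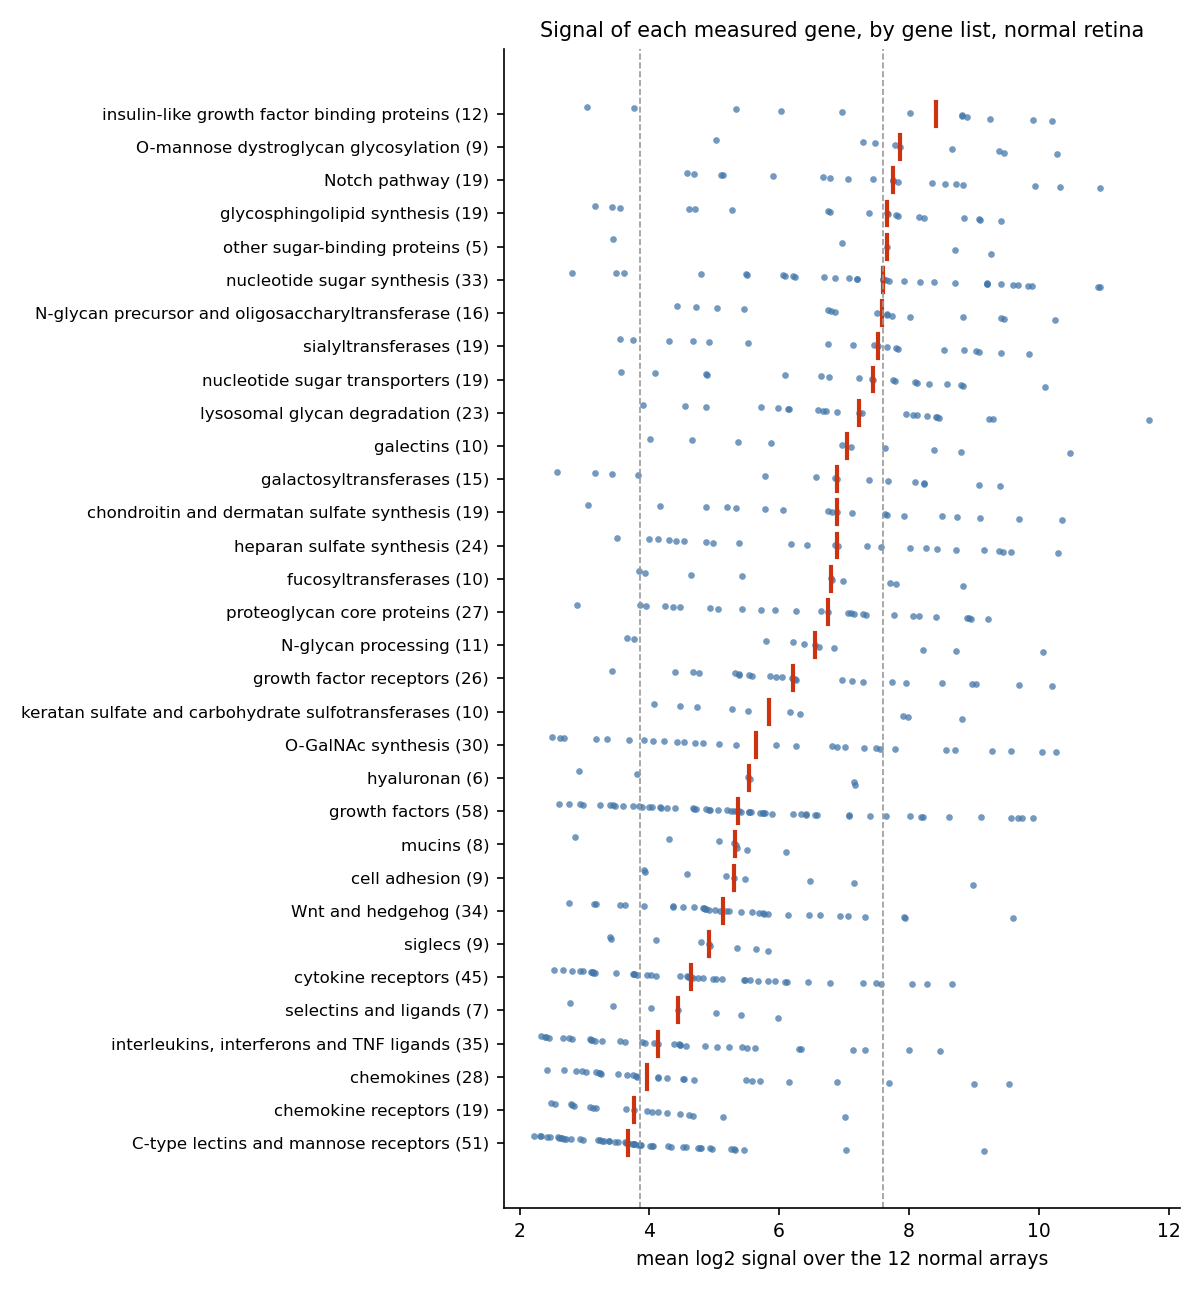
Mean log2 signal over the 12 normal arrays (x axis) of each measured gene (points) in 32 gene lists (y axis, number of genes in brackets), with list medians as red bars and the quartile bounds of 3.85 and 7.60 as dashed lines. Insulin-like growth factor genes have the highest median (8.41) and C-type lectins the lowest (3.66).

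Genes that make and activate sugars read high. The shares of this and the following lists are to be read beside those of all named genes, 31.9% in the top and 20.2% in the bottom quartile. Of 40 genes for nucleotide sugar synthesis 33 were measured, 18 of them (54.5%) in the top quartile and 3 in the bottom quartile, with a median of 7.60. Cmas, which activates sialic acid, read 10.94 ± 0.12, the phosphomannomutase Pmm1 10.91 ± 0.14, the UDP-glucose dehydrogenase Ugdh 9.89 ± 0.10 and the phosphoglucomutase Pgm1 9.83 ± 0.11. At the low end stood Pgm3 (3.48 ± 0.13) and Cmah (2.81 ± 0.09, suffix s), the hydroxylase that makes N-glycolylneuraminic acid, a sialic acid that brain is known to contain little of. Among 19 nucleotide sugar transporters 9 lay in the top quartile, led by Slc35b1 (10.10 ± 0.11), the CMP-sialic acid transporter Slc35a1 (8.83 ± 0.16), Slc35e3 (8.80 ± 0.11, suffix s) and Slc35b4 (8.59 ± 0.10). The lowest were Slc35a3 (4.09 ± 0.36, suffix s) and Slc35d2 (3.57 ± 0.10).

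Sialic acid transfer and ganglioside synthesis were likewise prominent by signal. Of 19 sialyltransferases 9 (47.4%) lay in the top quartile and 2 in the bottom quartile (median 7.52). St3gal1, which caps O-glycans, read 9.85 ± 0.15, the GD3 synthase St8sia1 (suffix s) 9.42 ± 0.26, the GM3 synthase St3gal5 9.08 ± 0.14 and St6galnac2 9.03 ± 0.27, while St6galnac1 (3.75 ± 0.14) and St6galnac3 (3.55 ± 0.10) read low. Glycosphingolipid genes had 10 of 19 in the top quartile (median 7.67). Besides St8sia1 and St3gal5 these were led by Ugcg (9.09 ± 0.13, suffix s), the glucosylceramide synthase at the head of the path, and St6galnac6 (8.85 ± 0.17). The globoside enzyme A4galt (3.43 ± 0.08) and Ugt8a (3.17 ± 0.15), which makes the galactosylceramide of myelin, were lowest. Both lists share the sialyltransferases of gangliosides.

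Lysosomal glycan degradation had 10 of 23 measured genes in the top quartile and 0 in the bottom quartile (median 7.22). After Psap came the GM2 activator Gm2a (9.30 ± 0.15) and the sulfatase Arsb (9.23 ± 0.20). The sialidases Neu2 (4.54 ± 0.16, suffix s) and Neu3 (3.91 ± 0.16) read lowest.

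Many N-glycan genes of the precursor stage read high. Of 16 measured genes for the lipid-linked precursor and its transfer 8 lay in the top quartile and 0 in the bottom quartile (median 7.59). They were led by the mannosyltransferases Alg2 (10.26 ± 0.14, suffix s) and Alg1 (9.42 ± 0.12), Dpm2 (9.46 ± 0.07, suffix s) and Rpn2 (8.83 ± 0.20). The oligosaccharyltransferase subunits Rpn1 (4.43 ± 0.09) and Dad1 (4.72 ± 0.09) read low. Of 11 processing genes 3 lay in the top quartile: Mgat1, which opens the path to complex N-glycans (10.06 ± 0.26), the glucosidase subunit Ganab (8.73 ± 0.20) and the mannosidase Man2a2 (8.21 ± 0.42), with Mgat4b next (6.84 ± 0.19). The branching enzymes Mgat4a (3.76 ± 0.14, suffix s) and Mgat4c (3.65 ± 0.14) read lowest. Among sugar-binding proteins of the secretory path Lman2l (9.27 ± 0.15), the folding sensor Uggt1 (8.71 ± 0.15), calnexin Canx (7.66 ± 0.14) and Igf2r (6.97 ± 0.21) were followed by Uggt2 (3.44 ± 0.11).

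Transferases of chain extension were mixed. Of 15 galactosyltransferases 6 lay in the top quartile, led by B4galt1 (9.40 ± 0.10), B4galt3 (9.08 ± 0.14), B4galt2 and B4galt5 (both 8.23 ± 0.18), and 4 in the bottom quartile, with Ugt8a and B3galt2 (2.58 ± 0.12, suffix s) last. Of 10 fucosyltransferases those that act on Notch and thrombospondin repeats, Pofut1 (8.83 ± 0.18) and Pofut2 (7.80 ± 0.09), and the core fucosyltransferase Fut8 (7.71 ± 0.13) read in the top quartile. Fut9, which makes the Lewis x epitope, read 6.99 ± 0.21, and the blood group enzymes Fut2 (3.93 ± 0.11) and Fut1 (3.83 ± 0.15) read lowest. O-GalNAc synthesis spread over the whole range, with 7 of 30 genes in the top and 6 in the bottom quartile. Its highest members were C1galt1c1 (10.27 ± 0.13), the chaperone of the core 1 enzyme, Galnt4 (10.05 ± 0.16), Galnt10 (9.58 ± 0.21) and Galnt17 (9.28 ± 0.17), and its lowest Galntl6 (2.63 ± 0.09) and Galnt3 (2.49 ± 0.11).

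Dystroglycan glycosylation had 6 of 9 genes (66.7%) in the top quartile and 0 in the bottom quartile (median 7.86). B4gat1 (suffix a) read 10.28 ± 0.16, Pomgnt1 9.46 ± 0.14 and Dag1 (dystroglycan), which carries the chain, 8.67 ± 0.16. B3galnt2 (7.29 ± 0.12, suffix a) and Large2 (5.03 ± 0.09) read lowest.

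Glycosaminoglycan genes are given here beside the 31.9% of all named genes that lay in the top quartile. Heparan sulfate synthesis had 9 of 24 genes in the top and 1 in the bottom quartile (median 6.89), with the chain-building Extl2 (10.30 ± 0.14), Extl3 (9.57 ± 0.15, suffix s) and Ext1 (9.45 ± 0.35) and the sulfotransferase Ndst1 (9.39 ± 0.22) highest. Hs6st3 (4.00 ± 0.11) and Ndst4 (3.51 ± 0.15) read lowest. Chondroitin and dermatan sulfate synthesis had 8 of 19 in the top and 1 in the bottom quartile (median 6.89), led by the polymerase Chsy1 (10.36 ± 0.19), the sulfotransferases Ust (9.70 ± 0.23, suffix s) and Chst3 (9.09 ± 0.28) and the linker enzyme B3gat3 (8.73 ± 0.20), while Chst7 (4.17 ± 0.12) and Chsy3 (3.06 ± 0.09) read low. Among 10 keratan sulfate and related sulfotransferases Chst1 (8.82 ± 0.13), Chst2 (7.98 ± 0.14) and Chst10 (7.91 ± 0.13, suffix a) lay in the top quartile, and Chst4 (4.08 ± 0.13, suffix s) was lowest.

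The proteins that carry these chains had 8 of 27 measured members in the top quartile and 1 in the bottom quartile. Syndecans Sdc4 (9.21 ± 0.22) and Sdc3 (8.96 ± 0.12), agrin Agrn (8.93 ± 0.11) and testican Spock1 (8.90 ± 0.15) read highest. Versican Vcan (3.86 ± 0.42) and lumican Lum were lowest. For hyaluronan, a free chain, 0 of 6 genes reached the top quartile: the hyaluronidase Hyal2 (7.16 ± 0.12) and the receptor Cd44 (7.15 ± 0.69) led, and the synthases Has3 (3.80 ± 0.11) and Has2 (2.92 ± 0.13) were last. Cd44 was highest in the pair of arrays with high Grifin.

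Among lectins the galectins had a median signal of 7.04, against 4.92 for siglecs, 4.44 for selectins and their ligands and 3.66 for C-type lectins. Of 10 galectins measured, 4 lay in the top quartile and 0 in the bottom quartile: the galectin-like Lgalsl (10.47 ± 0.13), galectin-1 Lgals1 (8.80 ± 0.48, suffix s), galectin-8 Lgals8 (8.39 ± 0.12) and galectin-4 Lgals4 (7.63 ± 0.30, suffix s). Lgals9 (4.66 ± 0.14, suffix s) and Lgals12 (4.01 ± 0.13) were lowest. Galectin-1 read between 8.33 and 8.77 in 9 of the 12 arrays and 9.38 to 9.89 in replicates 2 and 3 of 2 months and replicate 1 of 4 months, which include the pair with high Grifin. Galectin-3, Lgals3 (suffix s), read highest in the same 3 arrays (7.45 to 8.44, against 6.36 to 7.11).

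C-type lectins and mannose receptors were the low end of the ranking. Of 51 measured, 31 (60.8%) lay in the bottom quartile and only Pla2r1, the phospholipase A2 receptor, in the top quartile (9.15 ± 0.18). Clec11a (7.02 ± 0.18), Mrc2 (5.46 ± 0.25) and langerin Cd207 (5.32 ± 0.17) followed, and Colec10 (2.31 ± 0.08, suffix s) and Clec4a2 (2.23 ± 0.08) came last. Siglecs had 0 of 9 in the top and 2 in the bottom quartile: Siglec15 (5.83 ± 0.09), the myelin siglec Mag (5.64 ± 0.12), Cd22 (5.35 ± 0.07) and Siglech (4.93 ± 0.14, suffix x) read highest and Cd33 (3.40 ± 0.09) and Siglecf (3.39 ± 0.32) lowest. Selectins and their ligands also had 0 of 7 in the top quartile, with Madcam1 (5.99 ± 0.10) and Selplg (5.42 ± 0.10) highest and the endothelial selectin Sele (2.77 ± 0.11) lowest.

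Immune signalling genes read low with a few exceptions. Of 28 chemokines 14 lay in the bottom quartile, and the 3 in the top quartile were fractalkine Cx3cl1, which neurons are known to display (9.54 ± 0.18), Ccl27a (9.0 ± 0.08, suffix s) and Cxcl14 (7.70 ± 0.29), with Cxcl12 next (6.89 ± 0.22). Of 19 chemokine receptors 10 (52.6%) lay in the bottom and 0 in the top quartile, Cx3cr1 (suffix s), the fractalkine receptor of microglia, being the highest. Among 35 interleukins, interferons and TNF ligands 14 lay in the bottom quartile, and Il33 (8.48 ± 0.32) and Il17d (7.99 ± 0.19) in the top quartile, followed by Csf1 (7.33 ± 0.11, suffix a) and Il18 (7.14 ± 0.14, suffix a). Il21 (2.39 ± 0.08) and Il17a read lowest. Cytokine receptors had 15 of 45 in the bottom quartile. Il6st, the shared signal transducer of the interleukin-6 family (8.67 ± 0.19), the ciliary neurotrophic factor receptor Cntfr (8.29 ± 0.20) and Ifngr1 (8.05 ± 0.13) made up its top-quartile members, with Ifngr2 just under the bound (7.57 ± 0.13).

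Growth factor genes lay across the range, with 10 of 58 ligands in the top and 11 in the bottom quartile. Igf2 (9.91 ± 0.13), Fgf13 (9.74 ± 0.19), Vegfa (9.68 ± 0.17) and Fgf1 (9.57 ± 0.28) read highest, and Fgf16 (2.76 ± 0.10) and Hgf (2.61 ± 0.10) lowest. Of 26 receptors 7 lay in the top quartile, led by Igf1r (10.21 ± 0.14), Bmpr1a (9.69 ± 0.15), Acvr2a (9.03 ± 0.22) and Gfra2 (8.98 ± 0.19, suffix x), and Erbb4 (3.42 ± 0.12) was the lowest. The list of insulin-like growth factors, their receptors and binding proteins had 7 of 12 genes in the top quartile, among the binding proteins Igfbp2 (9.24 ± 0.26) and Igfbp5 (8.90 ± 0.36), with Igfbp1 (3.76 ± 0.16) and Igfbp3 (3.05 ± 0.14) lowest. The Notch pathway had 10 of 19 in the top and 0 in the bottom quartile. Psenen, a subunit of the gamma-secretase that cleaves Notch, read 10.94 ± 0.09, the ligand Jag1 10.32 ± 0.14 and the fringe glycosyltransferase Rfng 9.94 ± 0.20, while Notch4 (4.68 ± 0.13, suffix s) and Notch3 (4.57 ± 0.16) were lowest.

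The comparison of 4 months with 1 month asked whether these signals differed between the first and last age studied, not whether they moved in between. In limma, fitted to the 12 normal arrays, 0 of 1246 probe sets (0.0%) passed an adjusted p of 0.05, and the smallest adjusted p was 0.126. At an unadjusted p under 0.05, 97 (7.78%) passed, 50 higher and 47 lower at 4 months. The arrays of the 2 ages did not overlap for 204 probe sets (16.4%). A p that misses the threshold shows no stability, so the 95% interval of each difference was read as well. For 1090 probe sets (87.5%) the whole interval lay within 0.5 log2 units either way, which is 1.41-fold between these 2 ages. Each interval stands alone and is not corrected for the number of probe sets. The other 156 were not so bounded, 139 with a difference under 0.5 and 17 with 0.5 or more. The median size of the difference was 0.07 and its median standard error 0.10, and 785 probe sets (63.0%) differed by less than 0.1. Without the pair of arrays with high Grifin limma called 0 (89 at an unadjusted p under 0.05), and 1058 intervals lay within the bound.

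**Figure D2:**
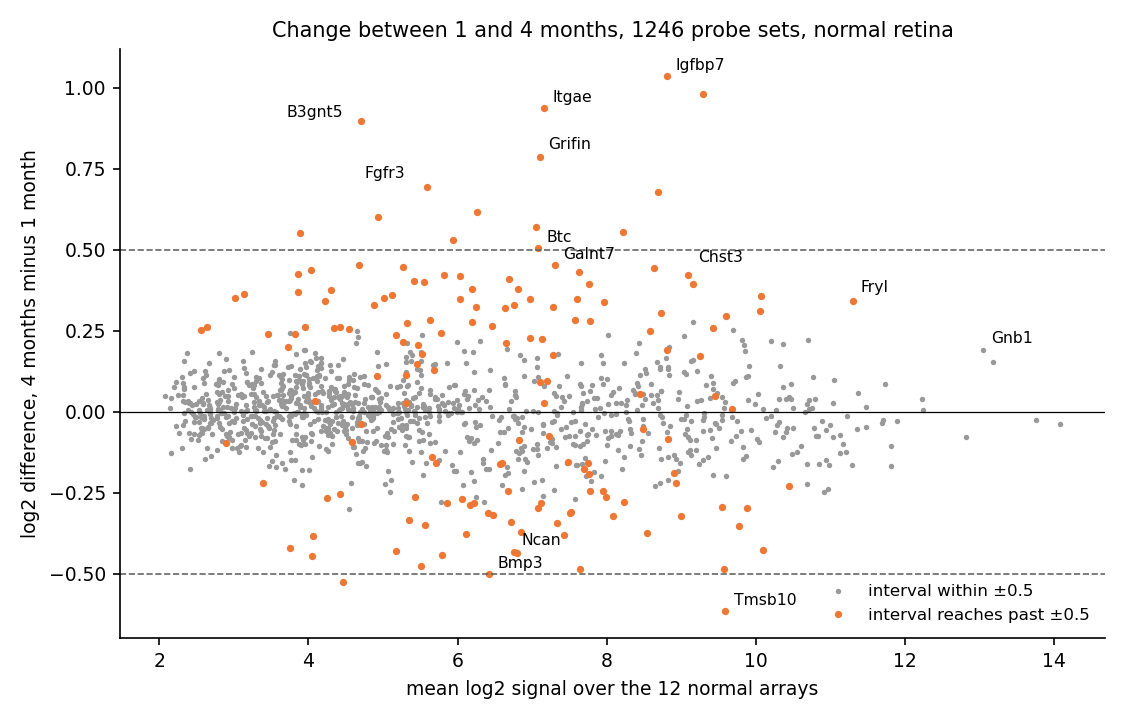
Log2 difference of 4 months minus 1 month (y axis) against mean log2 signal over the 12 normal arrays (x axis) for 1246 probe sets; grey points have a 95% interval within 0.5 either way (dashed lines) and orange points do not. Points cluster around 0 at every signal, and 0 probe sets passed an adjusted p of 0.05.

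Among named genes 782 of 909 were held within 0.5, with a median difference of 0.00, and the families below are to be read against that share. All 6 microglia and macrophage markers and both platelet genes were held within the bound, as were 44 of 45 cytokine receptors (median difference 0.01), 23 of 24 heparan sulfate genes (0.02), 26 of 28 chemokines (0.00), 18 of 19 chemokine receptors (0.06), 17 of 19 Notch genes (-0.06) and 15 of 16 N-glycan precursor genes (-0.02). For O-mannosylation 8 of 9 were held (-0.04), and for nucleotide sugar synthesis 28 of 33 (-0.01), both close to the share of all named genes. The bound was met less widely by proteoglycan core proteins (16 of 27, median -0.01), insulin-like growth factor genes (7 of 12, 0.11), galectins (6 of 10, 0.17) and N-glycan processing (7 of 11, -0.02). Also below the share of all named genes were sialyltransferases and nucleotide sugar transporters (14 of 19 each). So were growth factor receptors (19 of 26), O-GalNAc synthesis (23 of 30) and cell adhesion (6 of 9). Other lists below that share are not given here. Of the 5 connective tissue markers 0 were held, and neither Grifin nor Bmp4 was; these genes varied between arrays of the same age. L1cam was not held either (-0.32, interval from -0.64 to 0.00). The Grifin difference was 0.79 with an interval from -2.08 to 3.65. By signal, 266 of 312 probe sets of the top quartile and 302 of 312 of the bottom quartile were held, with median residual SDs of 0.13 and 0.10. Of the families above, 14 of 28 chemokines, 10 of 19 chemokine receptors and 15 of 45 cytokine receptors lay in the bottom quartile. Whether their shares differ from those of other genes of like signal was not tested.

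Among named genes the smallest p for higher values at 4 months belonged to Chst3, Galnt7, Pla2r1, Fryl and Btc, each below the threshold only before adjustment. Chst3, which adds 6-O-sulfate to chondroitin, read 8.79, 8.55 and 8.68 at 1 month and 9.15, 9.05 and 9.08 at 4 months. Galnt7, which adds GalNAc to partly glycosylated mucin-type peptides, read 7.26, 7.26 and 7.04 at 1 month and 7.68, 7.73 and 7.51 at 4 months. The ages did not overlap in either gene. Limma gave differences of 0.42 ± 0.08 (SE, n = 12 arrays in the fit) for Chst3 and 0.45 ± 0.09 for Galnt7, both with an adjusted p of 0.126.

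Pla2r1 read 8.87, 9.02 and 9.15 at 1 month and 9.33, 9.38 and 9.52 at 4 months (0.39 ± 0.09). Fryl, a gene related to the furry protein of flies, read 11.19, 10.98 and 11.10 and then 11.38, 11.49 and 11.43 (0.34 ± 0.08). Betacellulin Btc, a ligand of EGF receptors, read 6.82, 6.91 and 6.91 and then 7.27, 7.42 and 7.46 (0.50 ± 0.11). All 3 genes were without overlap between these ages, and the adjusted p was again 0.126 for each.

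On the lower side stood Bmp3, Ncan, Tmsb10, Neu2 and Spock2. Bone morphogenetic protein 3 (Bmp3) read 6.67, 6.56 and 6.84 at 1 month and 6.21, 6.22 and 6.14 at 4 months (-0.50 ± 0.11, limma adjusted p = 0.126). Neurocan (Ncan), a chondroitin sulfate proteoglycan of the neural matrix, read 7.11, 6.71 and 7.07 and then 6.52, 6.63 and 6.44 (-0.43 ± 0.11, adjusted p = 0.187 in limma). Thymosin beta 10 (Tmsb10, suffix s), an actin-binding peptide of young neurons, read 9.91, 9.51 and 9.69 and then 9.30, 8.93 and 9.03 (-0.62 ± 0.17, limma adjusted p = 0.271). In each the 4-month arrays lay below the 1-month arrays. The sialidase Neu2 (suffix s) differed by -0.30 ± 0.08 and the testican Spock2 by -0.26 ± 0.08, with limma adjusted p of 0.272 and 0.345, and both intervals lay within 0.5.

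Other settings of the same comparison gave few calls. With array weights limma called 14 probe sets, 8 higher and 6 lower, among them Btc (0.55, adjusted p = 0.0327), Pla2r1 (0.48), Chst3 (0.37), Galnt7 (0.39), Galnt4 (0.34), Fryl (0.30), Bmp3 (-0.51), Ncan (-0.52), Tmsb10 (-0.71) and Neu2 (-0.37). The remaining 4 have no gene name. With the 6 arrays of these ages alone 1 gene passed, the integrin Itgae (0.94, adjusted p = 0.0258), which read 6.50, 6.46 and 6.11 at 1 month and 7.34, 7.26 and 7.27 at 4 months. At 3 months Itgae spread from 6.36 to 8.03, and with the 12 arrays its adjusted p was 0.345. Without replicate 1 of 1 month 1 probe set without a gene name passed (0.83, adjusted p = 0.0380). A linear change per month was called by limma for 0 probe sets (0.0%), with a smallest adjusted p of 0.163 and 93 at an unadjusted p under 0.05.

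A test for any difference among the 4 ages called 7 probe sets (0.562%) by limma's moderated F test, with 181 at an unadjusted p under 0.05. Those described here are Chst3, Lgals4, Tmsb10 and Btc. In all 7 the 2-month mean was the lowest (3) or the highest (4), and in 4 the 2-month arrays lay outside all other normal arrays. Over the whole array, 71 probe sets (5.70%) had their 3 arrays of 2 months outside all other normal arrays. The counts were 23 for 1 month, 14 for 3 months and 25 for 4 months. Age cannot be told apart here from anything else that the 3 arrays of an age share, and the cause was not tested. Without the 3 arrays of 2 months, a setting chosen after seeing the data, limma called 0 (89 at an unadjusted p under 0.05).

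Chst3 was low at 1 month alone: after the 1-month values above it read 9.44, 9.42 and 9.22 at 2 months and 9.18, 9.28 and 9.25 at 3 months (F test adjusted p = 0.00853, limma). Its step from 1 to 2 months was 0.69 (adjusted p = 0.000951). Galectin-4, Lgals4, whose suffix s leaves it uncertain against the near-identical Lgals6, read 7.42, 7.01 and 7.23 at 1 month, 7.82, 7.95 and 8.11 at 2 months, 7.69, 7.60 and 7.76 at 3 months and 7.59, 7.70 and 7.67 at 4 months (adjusted p = 0.0274). It shared with Chst3 a 1-month group below all other arrays. Tmsb10 read 10.08, 9.90 and 10.64 at 2 months and 9.42, 9.34 and 9.35 at 3 months (adjusted p = 0.0274), and Btc 6.67, 6.60 and 7.0 at 2 months and 7.13, 7.28 and 7.46 at 3 months (adjusted p = 0.0404). Tmsb10 was lower and Btc higher at 3 and 4 months than at 1 and 2 months in every array. This grouping of ages was chosen after the values were seen and was not tested. How many of all probe sets separate in this way was not counted. The step from 2 to 3 months did not pass in either gene (adjusted p = 0.079 for both, limma).

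These calls rested on single arrays in part. Chst3 lost its call without replicate 3 of 1 month (adjusted p = 0.0517). Lgals4 lost its call without replicate 3 of 4 months (0.0689), replicate 2 (0.0800) or 3 (0.0636) of 2 months, or replicate 2 (0.0761) or 3 (0.0977) of 1 month. Tmsb10 did so without replicate 2 (0.0787) or 3 (0.0952) of 4 months, replicate 2 (0.0619) or 3 (0.0562) of 3 months, or replicate 3 of 1 month (0.0895). Btc kept its call without replicate 1 of 3 months or replicate 1 or 3 of 2 months, and its adjusted p reached 0.133 in the other 9 fits, which each left out a different array. The number of calls was 48 without replicate 1 of 2 months, 2 without replicate 3 of 1 month and 3 without replicate 3 of 4 months. Without the pair with high Grifin 5 were called, 3 of them among the 7; Lgals4 and Btc then had an adjusted p of 0.0928. With the spread estimated from all 24 arrays the calls of Tmsb10 (0.109) and Btc (0.345) were lost. Quantile normalization ended those of Chst3 and Tmsb10 (both 0.0585) and Btc (0.0750), centring that of Btc (0.0571), and log2 Grifin as a covariate those of Lgals4 and Tmsb10 (both 0.0522).

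**Figure D3:**
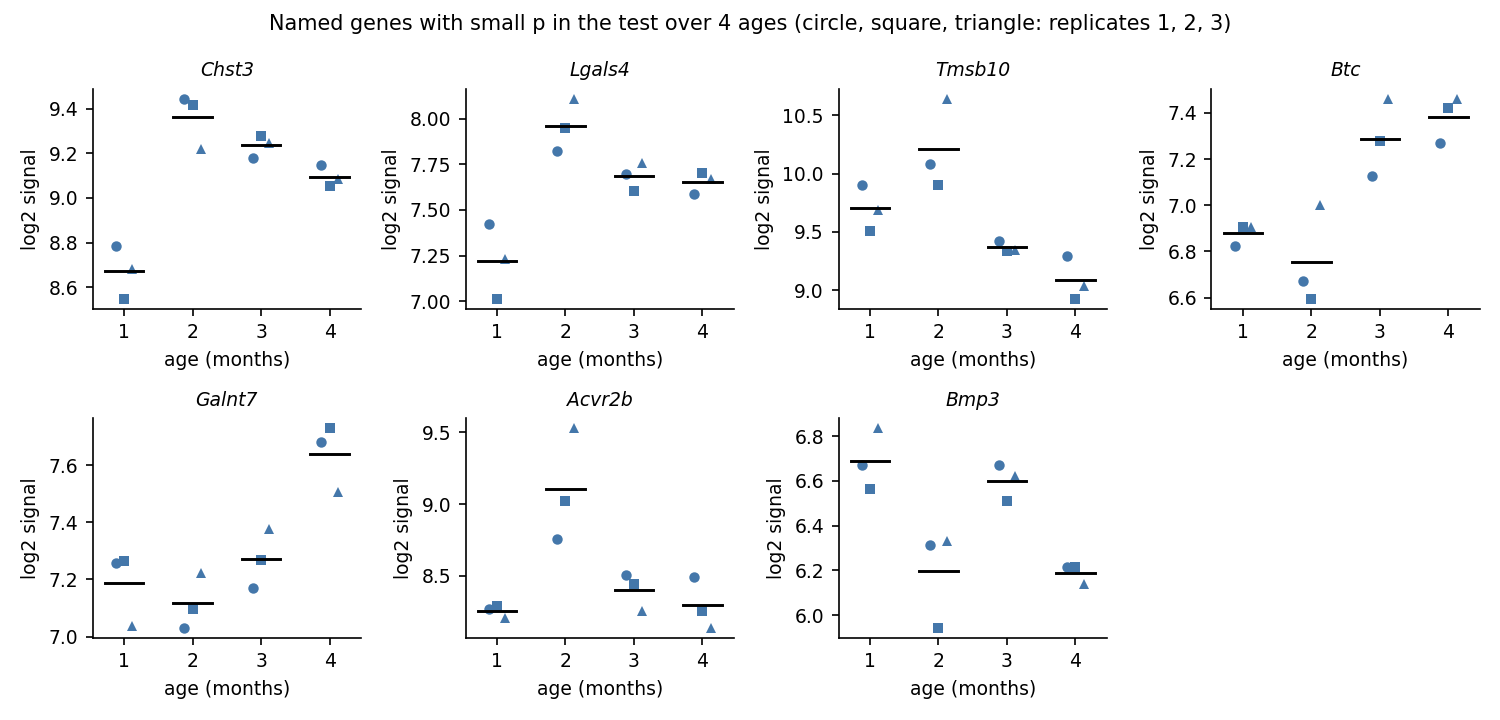
Log2 signal (y axis) of each normal array at 1 to 4 months (x axis) for 7 named genes with small p in the test over ages; symbols are replicates and bars are means of 3. Chst3 and Lgals4 were lowest at 1 month, and Acvr2b was highest at 2 months.

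The next named genes by p were Galnt7, Acvr2b and Bmp3, each with an F test adjusted p of 0.0643 in limma. Acvr2b, an activin receptor, read 8.27, 8.29 and 8.21 at 1 month, 8.76, 9.02 and 9.53 at 2 months, 8.51, 8.44 and 8.26 at 3 months and 8.49, 8.25 and 8.14 at 4 months, so that its 2-month arrays lay above all others. Bmp3 read low at 2 months (6.31, 5.94 and 6.33) and at 4 months, and between 6.51 and 6.67 at 3 months. Without replicate 1 of 2 months all 3 passed, with adjusted p of 0.0382 for Galnt7, 0.00614 for Acvr2b and 0.0218 for Bmp3.

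Steps between neighbouring ages, a comparison added after seeing the data, were tested next. Limma called 15 probe sets (1.2%) for 2 minus 1 month, 1 (0.0803%) for 3 minus 2 months and 0 (0.0%) for 4 minus 3 months; whether the steps differ from each other was not tested. Higher at 2 months were Chst3, Lgals4, Acvr2b (0.85), the sialyltransferases St6galnac2 (0.60) and St3gal6 (0.67), and Itgae (1.39). Lower were the fucosyltransferase Fut10 (-1.75), the testican Spock3 (-0.73) and Bmp3 (-0.49). A second Fut10 probe set (suffix s) did not pass (-0.53, limma adjusted p = 0.223). The others called are not described here.

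**Figure D4:**
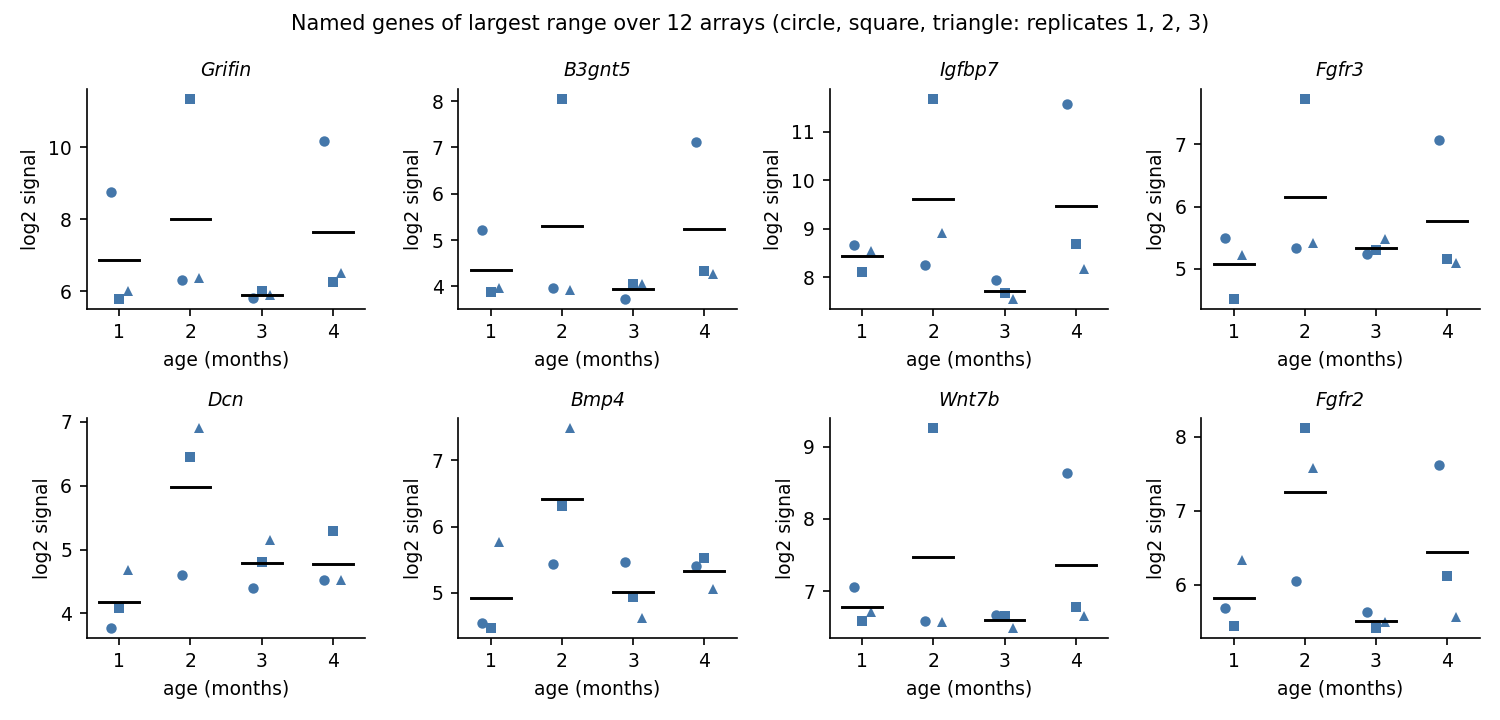
Log2 signal (y axis) of each normal array at 1 to 4 months (x axis) for the 8 named genes of largest range; symbols are replicates and bars are means of 3. Replicate 2 of 2 months and replicate 1 of 4 months stand above the rest for Grifin, B3gnt5, Igfbp7, Fgfr3 and Wnt7b, and Dcn and Bmp4 are high in replicates 2 and 3 of 2 months.

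Spread among the 12 normal arrays was largest for a small set of genes. Grifin ranged over 5.53 log2 units, B3gnt5, a transferase of lacto-series glycolipids, over 4.31, Igfbp7 (suffix s) over 4.11, Fgfr3 over 3.21 and the Wnt ligand Wnt7b over 2.76. B3gnt5 read 8.05 and 7.12 in the pair of arrays with high Grifin and at most 5.21 elsewhere, and Igfbp7 11.68 and 11.58 against at most 8.91. In all, 26 of 1246 probe sets, with 25 named genes, read highest in this pair, and 58 of 1246 read lowest in both. How many do so in other pairs of arrays was not counted. The named genes include Cd44, Wnt7a, Pdgfra, Lgals3, Sdc2, Gpc4 and Fgfr2. The gap between the lower of the pair and the highest other array was 0.79 for Cd44, but only 0.06 for Gpc4 and 0.04 for Fgfr2. Without the pair the ranges were 2.97 for Grifin, 1.48 for B3gnt5, 1.35 for Igfbp7, 0.97 for Fgfr3 and 0.57 for Wnt7b.

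Decorin, Dcn (suffix s), a connective tissue proteoglycan, and Bmp4 followed another pattern. Dcn read 6.45 and 6.90 in replicates 2 and 3 of 2 months and 3.77 to 5.29 in the other arrays. Bmp4 read 6.31 and 7.48 in the same replicates and 4.47 to 5.76 elsewhere. Their ranges of 3.13 and 3.00 were the same without the pair with high Grifin. Fgfr2 (suffix s) was high in replicates 2 and 3 of 2 months (8.11 and 7.58) and in replicate 1 of 4 months (7.62), against 5.42 to 6.33 elsewhere.

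At the other end, among named genes above the median signal, a second probe set of Aldoa (suffix x) ranged over 0.12 (13.71 to 13.82), Lgals7 (suffix s) and the linker galactosyltransferase B4galt7 over 0.14, and Ywhab, Lamtor5 (suffix s) and the leukotriene hydrolase Lta4h over 0.17. Hp1bp3 (0.19) and Rab14 (0.20) completed the 8 of smallest range. Aldoa and Ywhab were also among the highest signals.

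The last comparison asked whether the change from 1 to 4 months differed between normal and mutant retinas. In limma on all 24 arrays 3 of 1246 probe sets passed for the difference of the changes (0.241%), Galnt7, B4galt1 and Fryl, each with a more negative change in mutant retinas. Galnt7 read 7.72, 7.66 and 7.64 in mutant retinas at 1 month and 7.01, 6.92 and 7.25 at 4 months, while normal arrays read higher at 4 months. The mutant change was -0.61 ± 0.13 (SE, adjusted p = 0.0166 in limma), and it differed from the normal change by -1.06 ± 0.19 (adjusted p = 0.0152).

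B4galt1, which makes the lactosamine of complex N-glycans, read 9.32, 9.25 and 9.29 in normal retinas at 1 month and 9.37, 9.46 and 9.37 at 4 months. In mutant retinas it read 9.35, 9.39 and 9.43 and then 8.90, 8.83 and 8.58. The 4-month mutant arrays lay below all others of these groups, and the changes differed by -0.73 ± 0.14 (limma adjusted p = 0.0166). Fryl read 11.08, 11.13 and 11.10 in mutant retinas at 1 month and 11.03, 10.92 and 10.95 at 4 months, and its changes differed by -0.48 ± 0.10 (limma adjusted p = 0.0348). Its change within mutant retinas did not pass (-0.13 ± 0.07, limma adjusted p = 0.378). Egfr (0.68 ± 0.15) and Bmpr1a (-0.56 ± 0.13) came next, both with an adjusted p of 0.0622 in limma. Egfr read 5.21 to 5.53 in normal retinas at either age, by the higher of its 2 probe sets. The other Egfr probe set averaged 4.04 over the normal arrays and is not described here. On their own, mutant retinas gave 33 calls (2.65%) between these ages in this model. Gnb1 was not among them (0.09 ± 0.12, SE, limma adjusted p = 0.835).

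These 3 calls depended on single arrays and on the scaling. The arrays with high Grifin were here the normal pair and mutant replicate 2 of 2 months, which read 11.29. Without them limma called 0 (120 at an unadjusted p under 0.05), with adjusted p of 0.0561 for Galnt7 and 0.0646 for B4galt1 and Fryl. The call of Galnt7 and of B4galt1 was lost without normal replicate 2 of 4 months (0.0748 for both) or normal replicate 3 of 1 month (0.0527 for both), and then 0 were called. Fryl lost its call in 8 of the 12 fits without an array, with adjusted p up to 0.113. The count was 6 without normal replicate 1 of 4 months or normal replicate 2 of 1 month, and 24 without mutant replicate 3 of 4 months. Centring each array gave 6 calls, 1 with a more positive and 5 with a more negative change in mutant retinas, and quantile normalization gave 15, 8 and 7. The differences of all 3 genes were negative under every setting run.

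**Figure D5:**
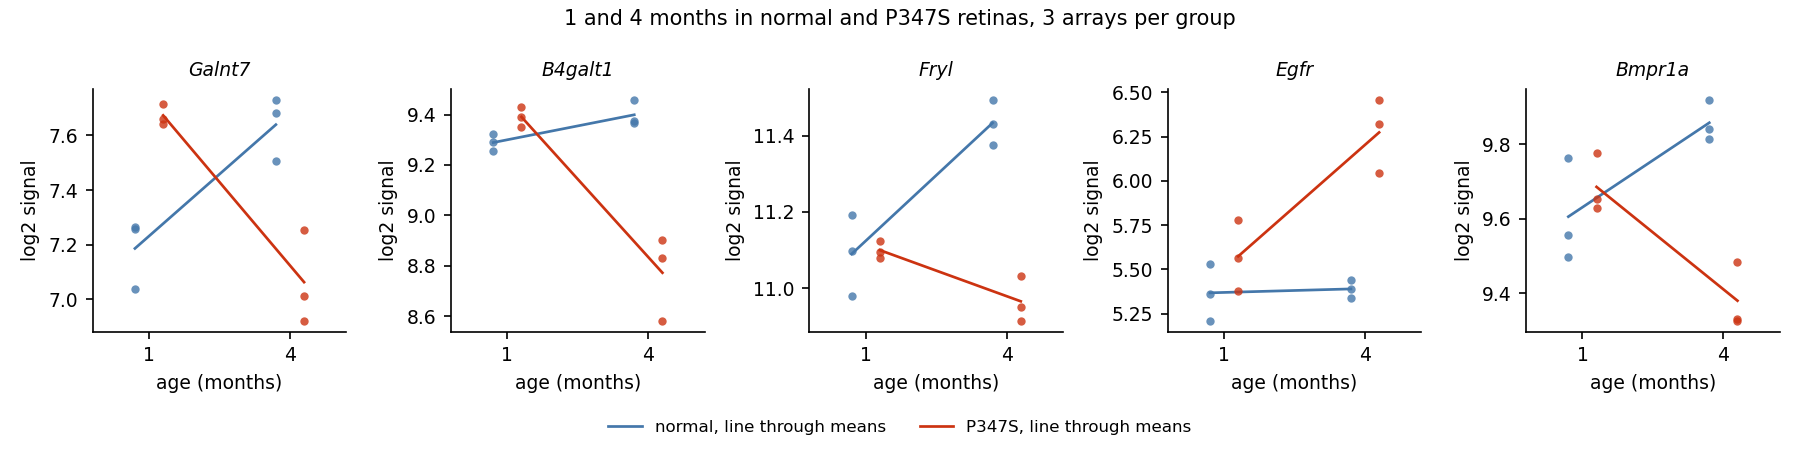
Log2 signal (y axis) at 1 and 4 months (x axis) in normal (blue) and P347S (red) retinas for the 5 named genes of smallest p in the test of the difference; points are arrays (3 per group) and lines join means. Galnt7 lines cross, and B4galt1 is lowest in P347S at 4 months (8.58 to 8.90).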

How the data were processed

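Total RNA of mouse retinas was hybridised as biotinylated cRNA to Affymetrix arrays, 1 array per sample, per the labels' protocols. The deposited values are log2 signals made by the authors with RMA, per the submitters' processing notes; the steps of RMA, any version, the arrays normalized together and the genome build are not given in the sources used here. Nothing was scaled again. Samples were grouped by the genotype and age in their labels. Probe sets carry transcript accessions in their names, which a table of RefSeq genes turned into symbols. Promoter sequences are those of RefSeq (GRCm38.p6).

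Linear models were fitted in R 4.3.3 with limma 3.58.1 (lmFit and eBayes, default settings) to the 12 normal arrays with a mean per age (8 residual and 4.19 prior degrees of freedom), or with a slope on age, and to all 24 arrays with 8 group means for the difference between genotypes. All tests are 2-sided. P-values were adjusted by the Benjamini-Hochberg method over all probe sets, with a threshold of 0.05. A comparison of 3 arrays with 3 cannot reach an exact permutation p under 0.1, so between single ages limma's shared variance is what allows a call. The scripts were tested on simulated data. Errors are SD over 12 arrays for levels and SE for differences.

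The rule for named genes takes the 20 highest signals, up to 4 highest and 2 lowest members of each list, the 5 of smallest p in each direction where none passed, 8 for the test over ages, 8 of largest and of smallest range, and 5 for the genotype difference. Genes named for the steps between ages and under array weights, Itgae, Fut10, Acvr2b, Rpn1, Dad1, Olr1 and the genes that read highest with Grifin were chosen after their values were seen. The rule, the members and the gene lists were chosen with earlier results of these data known. Alternatives covered scaling, filters on signal, the variance model, array weights, the samples fitted, the replicate number as a block, thresholds, arrays with log2 Grifin above 10, and each array left out in turn. Results for a few genes that the rule would name are not reported here.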

Additional observations from a re-analysis of the deposited data

Results flagged for a closer look

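For 3 genes limma's test of the difference itself found that the change from 1 to 4 months was not the same in normal and in P347S retinas. The mutant change minus the normal change was -1.06 for Galnt7, -0.73 for B4galt1 and -0.48 for Fryl, with 3 arrays in each of the 4 groups compared. In Galnt7 the mutant arrays at 4 months (6.92 to 7.25) lay below the normal ones (7.51 to 7.73), and at 1 month above them (7.64 to 7.72 against 7.04 to 7.26). In B4galt1 and Fryl the 4-month arrays of the genotypes did not overlap either. The 3 genes were picked by the test on these same arrays, so this separation adds no support. How many of all probe sets separate the genotypes in this way was not counted. Without the arrays with high Grifin, normal and mutant, the adjusted p in limma was 0.0561 for Galnt7 and 0.0646 for B4galt1 and Fryl.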

How the results depend on the processing

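Between 1 and 4 months limma called 0 probe sets under every alternative run except array weights (14) and the 6 arrays alone (1); leaving out each array gave 0 to 1. Probe sets with an interval within 0.5 numbered 1013 to 1103 without 1 array and 1058 to 1123 under the other settings, and 1222 lay within 1 log2 unit. The test over ages gave 7 calls, 2 after quantile normalization, 10 with each array centred, 0 without the arrays of 2 months (chosen after seeing the data) and 2 to 48 without 1 array. The slope gave 0 calls in every setting run. For the genotype difference the 3 calls became 6 with centring, 15 with quantile normalization, 0 without arrays with high Grifin and 0 to 24 without 1 array. The labels do not say whether equal replicate numbers pair the arrays. Deviations from the age means correlated above 0.1 in 3 of 18 same-numbered pairs, with r from -0.49 to 0.38. Their median r was -0.03, against 0.01 for pairs with other numbers, which does not exclude a pairing. With a replicate block limma called 0 probe sets between 1 and 4 months, 8 over the ages, 0 for the slope and 3 for the genotype difference. Of 512 values of named genes under alternatives 0 reversed, 50 lost and 21 gained their call; where the text gives no such value the cause was not tested. No background level is known for the array, so low signals limit what can be read from the bottom quartile.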

Other observations

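Of 34 measured Wnt and hedgehog genes 26 lay in the middle quartiles, 3 in the top and 5 in the bottom quartile (median 5.14), against 31.9% of all named genes in the top and 20.2% in the bottom quartile. Those in the top quartile were the frizzled receptor Fzd5 (9.60 ± 0.29, SD, n = 12 arrays, suffix s), the hedgehog transducer Smo (7.95 ± 0.16) and the ligand Dhh (7.92 ± 0.17), with Fzd10 next (7.32 ± 0.11, suffix x), and Fzd4, a receptor for norrin in retinal vessels, read lowest (2.77 ± 0.11). Mucins had 0 of 8 in the top quartile, from Muc13 (6.10 ± 0.09) to Muc15 (2.85 ± 0.11). Among 9 cell adhesion genes only L1cam lay in the top quartile, Vcam1 read 6.48 ± 0.24 and Icam1 3.92 ± 0.16. Of the 7 endothelial and pericyte markers 0 lay in the top or the bottom quartile, with Pecam1 at 5.48 ± 0.16 and Cd34 at 5.03 ± 0.19.

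Fut10, a fucosyltransferase measured by 2 probe sets, showed a single 3-month array at the 2-month level. Its first probe set read 5.64, 5.67 and 5.85 at 2 months and 7.41, 5.69 and 7.69 at 3 months, against 7.01 to 7.62 at 1 and 4 months. The second probe set (suffix s) read 5.10, 5.16 and 5.76 at 2 months and 5.91, 5.17 and 5.97 at 3 months, again with replicate 2 of 3 months apart. Itgae spread in the 3-month group as well, at 8.03, 7.30 and 6.36.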
